A study of Mus musculus with 12 samples.

Results

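The Lef1+ CD8 T cells are the cells that the authors' deposited annotation places in the T cell class and in its subtype named for Lef1 and Cd8, in the CD45-enriched libraries of 6 mouse mammary tumours. They number 974 of the 54955 cells in those 6 libraries, and of the 115612 cells in all 12 libraries of the series. The tumours labelled E, EM1, EM2, EM3, M and Parental hold 195, 104, 80, 500, 67 and 28 of them.

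The tumours were grown from 4T1, a mouse triple-negative mammary carcinoma line, implanted orthotopically in the mammary fat pad of female BALB/c mice aged 9 to 11 weeks, an immunocompetent host for this line. E, EM1, EM2, EM3 and M are 5 lines that each started from 1 cell of 4T1, and Parental is the uncloned line; no drug, transgene or knockout is named for any group. The design text sets epithelial, intermediate and mesenchymal clones side by side, and the labels of single tumours do not spell out which clone is in which state. Each line gave 1 tumour with 1 Total library (dissociated tumour) and 1 CD45 library (leukocytes taken with magnetic beads against CD45, the pan-leukocyte surface protein), so a tumour has no replicate, a clone cannot be told apart from its 1 mouse, and differences between tumours are given without a test.

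Lef1 and Tcf7 encode the transcription factors LEF1 and TCF1, which act downstream of Wnt signals in thymocytes and keep naive, central memory and stem-like T cells able to self-renew. CD8 T cells recognise peptides on MHC class I. Antigen drives them from a naive state, with the lymph node homing receptor CCR7, towards killers that carry granzymes and perforin, and in tumours towards an exhausted state that displays PD-1, LAG-3 and TIM-3. Some mouse CD8 T cells take on a memory look with CXCR3 and Ly6C through cytokines or weak self-reactivity, without foreign antigen. Innate-like T cells, among them γδ T cells (Trdc encodes the constant part of the δ chain) and NKT cells (which need the factor PLZF, encoded by Zbtb16), can lack both CD4 and CD8.

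The CD45 libraries held 6791 to 11024 cells with median depths of 1557 to 3453 UMIs (unique molecular identifiers, each 1 captured molecule) per cell, and the Total libraries 6709 to 13467 cells with medians of 2351 to 10042. Cell barcodes were compared between libraries by the bases at their start, not by their full names. The CD45 libraries of E and EM3 shared 1640 cell barcodes and those of EM1 and EM2 shared 1186. Each other pair of CD45 libraries shared 60 to 161. The Total and CD45 libraries of the same tumour shared 850 (EM1) to 1732 (E), and the Total library of E shared 1760 with the CD45 library of EM3. Among the Lef1+ CD8 T cells of all tumours, 1 barcode occurred in 2 tumours (E and EM3). A doublet caller marked 3.07% of all cells and these were left out, which removed 0 of the 974 Lef1+ cells. Its limit was passed by only 35.85% to 48.13% of simulated pairs of cells per library, so doublets can remain among the cells kept.

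The subtype formed 4.71% of the CD45 cells of EM3 (95% exact interval 4.31% to 5.13%), 1.85% of those of E (1.61% to 2.13%), 1.13% of EM1 (0.923% to 1.37%), 0.900% of EM2, 0.901% of M and 0.421% of Parental (0.280% to 0.608%). All intervals here cover counting error only, since each tumour is 1 sample. EM3 stood above every other tumour and E second, with intervals that did not touch their neighbours, while those of EM1, EM2 and M overlapped. That grouping rests on the denominator: without granulocytes M was at 1.83%, above EM1 at 1.33% and EM2 at 1.02%. Among T cells EM3 was again the highest: 29.0% in EM3 of 1725 T cells, 10.8% in E of 1805, 9.75% in M of 687, 4.37% in EM2 of 1830, 3.48% in Parental of 804 and 3.44% in EM1 of 3026. Among cells annotated as either CD8 subtype (Lef1+ or the Gzmb+ subtype, named for granzyme B), Lef1+ cells were the smaller group in E (25.8% of 756 cells), EM1 (13.2% of 790) and EM2 (24.1% of 332). They were the larger group in EM3 (61.7% of 811) and Parental (77.8%, with only 36 cells), and about level in M (51.5% of 130, interval 42.6% to 60.4%). A share of bead-enriched cells also moves with how many other leukocytes came through, and bulk numbers per tumour were not measured.

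**Figure D1:**
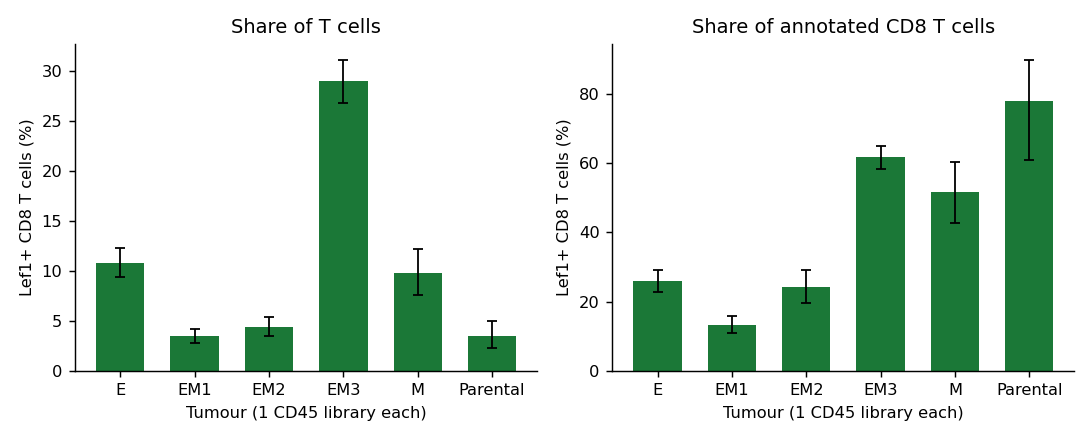
Share of Lef1+ CD8 T cells in the CD45 library of each tumour, in percent of T cells and in percent of the 2 annotated CD8 subtypes; bars are shares and lines 95% exact binomial intervals, with 1 tumour per group. EM3 has 29.0% of T cells, above the other 5 tumours, and Parental the highest share of CD8-annotated cells on only 36 cells.

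The label was checked against its own genes, on the CPM scale (a gene's UMIs summed over the cells of a tumour, scaled so that all genes add up to the same total) with 1 value per tumour. Lef1, on chromosome 3 at 131110297 to 131224357 of the mm10 assembly, was at 258, 378, 307, 291, 200.2 and 475 CPM in the tumours E, EM1, EM2, EM3, M and Parental. The Gzmb+ subtype held 19.0, 72.4, 94.8, 5.15 and 75.9 CPM in E, EM1, EM2, EM3 and M, below every Lef1+ value, and 162 CPM in the 8 cells of Parental. The gene that names the cells was nevertheless higher in another T subtype: the cells annotated Cd44- Cd4+ (by name CD4 T cells without the activation marker CD44) held 674 to 1264 CPM. Cd8a and Cd8b1, neighbours on chromosome 6 that encode the 2 chains of CD8, were at 225 to 528 CPM and 272 to 620 CPM in Lef1+ cells. The Gzmb+ subtype had more of both in every tumour (560 to 1234 CPM of Cd8a). With every cell thinned to 1000 UMIs, which 885 of the 974 cells reach, a CD8 gene was seen in 29.7% to 52.5% of Lef1+ cells across the 5 tumours with at least 50 of them (31.3% to 58.5% unthinned), against 63.2% to 91.1% of Gzmb+ cells, 24.1% to 32.1% of Cd44- Cd4+ cells and 0% to 4.17% of B cells, which lack CD8. Of the T cell receptor genes, Trac, the α chain constant region, was at 847 to 1411 CPM.

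A second cell label in the authors' tables has names of general immune classes, and how it was made is not given in the sources used here. It called 408 of the 974 cells (41.9%) T cells, 253 (25.98%) NKT, 166 (17.0%) ILC, 64 (6.57%) γδ T cells, 55 (5.65%) macrophages and 20 (2.05%) NK cells. Its T cell share was 50.8% in EM3, 42.9% in Parental, 41.5% in E, 26.9% in EM1, 26.2% in EM2 and 17.9% in M. For comparison it called 92.2% of the Cd44- Cd4+ cells T cells, and split the Gzmb+ subtype into 30.04% T cells, 45.2% NKT and 20.9% ILC. CD8 genes were thus seen in a part of these cells at this depth, and they are called the Lef1+ subtype below.

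The Lef1+ subtype was compared with the Gzmb+ subtype over the 5 tumours with at least 50 cells of both, as log2 of the ratio of CPM with 10 CPM added to each. The subtypes were drawn from the expression of these same genes, so the values describe them and are not tested. Of 6395 genes with at least 50 CPM, 33 (0.516%) were at least 2-fold higher in the Lef1+ subtype in every one of the 5 tumours and 51 (0.797%) at least 2-fold lower. Without M the genes past 2-fold in both directions numbered 142 in place of 84, and without any 1 of the other tumours 88 to 109. A gene must pass in every tumour used, so a rise is built into leaving out a tumour. The median over all genes was 0.00.

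Genes of naive and central memory T cells stood on the higher side. Of 18 such genes measured, 17 had a median above 0 and 3 were past 2-fold in every tumour, among them Tcf7 (median log2 1.89, range 1.16 to 3.24) and Igfbp4 (2.07), a secreted binder of insulin-like growth factors. Tcf7 was at 236, 311, 290.5, 327 and 416 CPM in E, EM1, EM2, EM3 and M, against 16.6, 76.8, 82.1, 25.8 and 180.2 CPM in the Gzmb+ subtype. No tumour's Gzmb+ value reached any Lef1+ value. Klf2, the factor that switches on tissue exit genes, and its target S1pr1, the receptor that draws T cells out of tissue, were higher in 5 of 5 tumours (medians 1.63 and 1.29) but under 2-fold in at least 1. Ccr7 did not follow Tcf7: its median log2 ratio was 0.15, with 452 CPM in the Lef1+ and 910.4 CPM in the Gzmb+ cells of EM3 and the opposite order in E (615 against 305).

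Genes of exhaustion and killing stood on the lower side. All 11 checkpoint genes measured had a median below 0 (list median −1.57) and 4 were past 2-fold in every tumour. Pdcd1, which encodes PD-1, was at 1157, 874.5, 847, 1363, 1017 and 826 CPM in the Lef1+ cells of E, EM1, EM2, EM3, M and Parental. The Gzmb+ subtype held 2409 to 4368 CPM and the Cd44- Cd4+ subtype 57.7 to 449, so the Lef1+ values lay between 2 ranges that they did not touch. Lag3 (−3.40), Havcr2, the gene of TIM-3 (−2.34), and Tox, a factor of the exhaustion programme (−1.69), were also lower. Against the Cd44- Cd4+ subtype these 3 were placed differently: Lag3 lay between the other subtypes in 4 of 4 tumours, Havcr2 in 1 of 4 and Tox in 0 of 4, with 8.01 to 82.6 CPM of Tox in Lef1+ cells and 65.4 to 130.3 CPM in Cd44- Cd4+ cells. Of 20 killing genes, Prf1 (perforin, −2.52) and Gzmf, a granzyme, passed in every tumour. Gzmb itself was at 452, 444, 448, 229 and 560.4 CPM in E, EM1, EM2, EM3 and M, or −1.09 against the subtype named for it, with a range of −1.29 to −0.57. Nkg7, a granule protein, had a median of −1.79. Ccl5, the chemokine RANTES, had a median of −0.05 over tumours that went opposite ways (1.59 in EM3 and −1.11 in EM2). It was the killing-list gene with the most UMIs in both subtypes (2747 to 5991 CPM in Lef1+ cells).

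Receptors that place T cells in tissue differed in both directions. Cxcr4, the receptor for CXCL12, was higher in the Lef1+ subtype (median 2.32, range 1.28 to 2.66), and Cxcr6, a receptor of tissue-resident T cells, was lower (−1.74, range −1.94 to −1.53). Cxcr3, which follows interferon-induced chemokines, was higher in 5 of 5 tumours: 435, 285, 365, 504 and 665 CPM in E, EM1, EM2, EM3 and M against 11.9, 115, 142, 15.5 and 360. Its smallest ratio, 0.86, missed 2-fold. Tnfrsf9, the costimulator 4-1BB that follows T cell receptor signalling, was at 364 to 875 CPM against 1830 to 3603. Its list did not move with it: 9 of 14 activation genes measured had a median above 0 (list median 0.29). Of these 14, 0 were past 2-fold higher in every tumour and 1 lower.

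Interferon genes were another group on the higher side. All 19 type I interferon genes measured had a median above 0 (list median 1.16) and 4 were past 2-fold in every tumour: Ifit3 (2.55), Irf7 (1.44), Ifit1 (1.38) and Rsad2 (1.37). Markers of other cells lay on the same side: all 10 macrophage markers measured had a median above 0 (list median 0.52, 0 past 2-fold in every tumour), as did 3 of 4 γδ and NKT markers (list median 2.84). Their part in the interferon values was not tested. Irf7, a factor that amplifies the interferon response, was at 284, 239, 232, 163 and 400.3 CPM in E, EM1, EM2, EM3 and M, and at 98.02, 69.1, 82.1, 67.0 and 123 in the Gzmb+ subtype. Of the 20 interferon γ genes 1 passed, Igtp (1.58), a GTPase that guards vacuoles. Ly6c2 (2.46), the gene of Ly6C, and Cd7 (2.45) passed among the 10 genes of memory-phenotype and innate-like CD8 cells. With only CD8-gene cells in both subtypes Irf7 (1.54), Ly6c2 (2.77) and Cd7 (1.43) were no longer past 2-fold in every tumour, nor were Tcf7 (2.64), Cxcr4 (1.65), Pdcd1 (−1.47) and Tox (−1.95) of the groups above. Cell division genes and the oxidative and glycolytic lists held 0 genes past the limit in either direction.

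**Figure D2:**
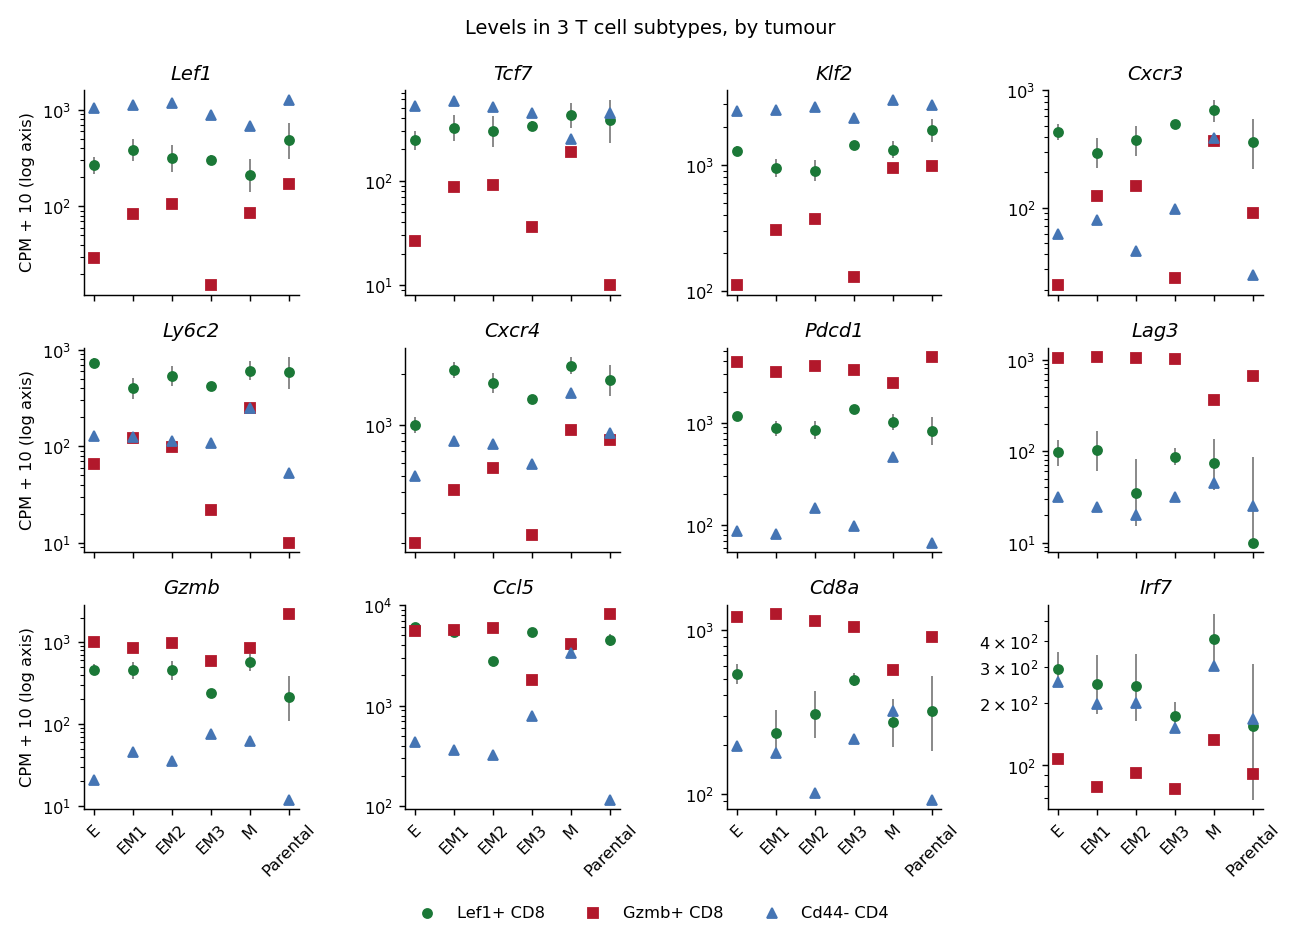
Levels of marker genes in the Lef1+, Gzmb+ and Cd44- Cd4+ subtypes, in CPM + 10 on a log axis with 1 point per tumour; vertical lines on the Lef1+ points are 95% Poisson intervals. Lef1 places the Lef1+ subtype below the Cd44- Cd4+ and above the Gzmb+ points, and Pdcd1 does so in the opposite order.

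Against the Cd44- Cd4+ subtype, over the 4 tumours with at least 50 cells of both, 109 of 6174 genes (1.77%) were at least 2-fold higher in the Lef1+ subtype in every tumour and 49 (0.794%) lower. Several of the gene lists held genes on the higher side. Of 16 killing genes 9 were among them, with Gzmb (median 3.504), Ccl5 (3.43), Gzmk (granzyme K, 2.998) and Nkg7 (2.27). Without cells with a UMI of another lineage Gzmk was at −0.27, with 5 Lef1+ cells and 1 Cd44- Cd4+ cell left in EM3. Of 15 homing genes 8 were, with Cxcr6 (3.43) and Cxcr3 (2.65), and of 12 effector factors 4 were, with Tbx21 (2.86), which encodes T-bet. So were 5 of 10 memory-phenotype and innate-like genes, with Cd7 (2.66) and Ly6c2 (2.10), and 3 of 4 γδ and NKT genes, with Trdc (2.09, but −0.32 with only those Lef1+ cells that had a CD8 gene). Of 9 checkpoint genes 2 were, Pdcd1 and Rgs16 (2.55). Pdcd1 differed by 3.58 (range 2.55 to 3.82). Among 18 cytokine receptor genes 4 were higher, led by Il12rb2 (3.04) and Il18rap (2.83), and 4 lower, led by Il6ra (−2.20) and Ifngr2 (−2.15). On the lower side stood 5 of 19 naive and central memory genes, among them Igfbp4 (−2.64), Ccr7 (−1.96), Satb1 (−1.55) and Treml2 (−1.37). Lef1 itself was lower by the same measure (−1.73, range −1.95 to −1.54). Of 19 type I interferon genes 0 were past 2-fold in every tumour against these cells (list median 0.44).

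Cell quality was tested over the 6 tumours as paired values. Lef1+ cells had more UMIs than Cd44- Cd4+ cells in 6 of 6 tumours (log2 difference of medians 0.46, SD 0.23) and a lower mitochondrial percent in 6 of 6. The exact two-sided sign-flip p was 0.03125 for each, the smallest that 6 tumours allow, and 0.0625 after Benjamini-Hochberg adjustment over the 6 tests of this kind. Against the Gzmb+ subtype UMIs per cell differed by 0.08 (SD 0.29, 4 of 6 tumours, exact p = 0.531), and the mitochondrial percent was higher by 0.207 (SD 0.143, 5 of 6 tumours, exact p = 0.0625, adjusted 0.0938). Markers of other cell types in the Lef1+ subtype were also summed. The 12 macrophage markers came to 2890 to 8760 CPM, with 11 to 12 of them seen per tumour, against 2352 to 4464 in the Gzmb+ subtype, 2729 to 7015 in the Cd44- Cd4+ subtype and 56476 to 69979 in macrophages. B cell markers came to 0 to 41.3 CPM and granulocyte markers to 1154 to 2970. The part of these transcripts in the differences was not tested.

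Per cell, Pdcd1 was seen at 1000 UMIs in 29.7% to 54.5% of Lef1+ cells across the 5 tumours with at least 50 of them. Parental, with 26 cells of this depth, had 23.1%. The range was 73.7% to 94.5% of Gzmb+ cells in the same 5 tumours and 0% to 7.50% of B cells. Cd44- Cd4+ cells showed Pdcd1 in 3.11% to 6.29% over E, EM1, EM2 and Parental, in 1 of 48 cells in EM3 and in 7 of 31 in M (22.6%, exact interval 9.59% to 41.1%, which overlapped that of EM3). Ccl5 was seen in 57.8% to 77.1% of Lef1+ cells and 33.4% to 73.8% of Gzmb+ cells, where the ranges overlapped. In Cd44- Cd4+ cells it was seen in 5.45% to 12.3% over the same 4 tumours, in 18.8% in EM3 and in 54.8% in M.

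The Lef1+ CD8 name does not gather all CD8 cells with Lef1. Of the T cells of the CD45 libraries with a CD8 gene, without Cd4 and with Lef1 at 1000 UMIs, 228 of 371 (61.5%, exact interval 56.3% to 66.4%) were annotated Cd44- Cd4+ and 94 (25.3%, 21.0% to 30.1%) Lef1+. The tumours differed: 43 of 52 such cells in EM3 (82.7%) carried the Lef1+ label, 27 of 65 in E, 10 of 138 in EM1, 5 of 62 in EM2, 2 of 6 in M and 7 of 48 in Parental. The depth rule kept 885 of 974 Lef1+ cells but only 1698 of 3353 Cd44- Cd4+ cells, so these numbers leave out many of the latter. Among the Cd44- Cd4+ cells at this depth, 476 of 1698 (28.0%) had a CD8 gene and no Cd4, and 380 had Cd4 and no CD8 gene.

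CD8-gene cells without Cd4 differed by label. They were taken here from a separate random thinning, which gave slightly other numbers of cells. Pooled over tumours, the 397 with the Lef1+ label held 267 CPM of Lef1 and the 476 labelled Cd44- Cd4+ held 819. Ccr7 was at 619.6 against 2869.7. Each of these 2 genes was lower under the Lef1+ label in 6 of 6 tumours. Tcf7 was at 350.1 against 424 in the pool, but it was higher under the Lef1+ label in 4 of 6 tumours, since EM3 gave 230 of the 397 cells and EM1 218 of the 476. Ccl5 went the other way at 6348 against 658, as did Pdcd1 at 1690.2 against 122, Cxcr3 at 615 against 124 and Gzmb at 380.4 against 65.1, each in 6 of 6 tumours. Not every one of these signs is past counting error. The intervals of the 2 labels overlapped for Tcf7 in every tumour and, for example, for Cxcr3 in EM1 and Lef1 in Parental. Gzmb rested on 49 and 2 UMIs in EM3 and on 2 and 0 in Parental, under the Lef1+ and the Cd44- Cd4+ label. The gap differed by tumour: in M, with 22 and 10 cells, Ccl5 was at 5136 against 4600.0 CPM and Cxcr3 at 954.5 against 800.0, and Lef1 rested on 3 and 2 UMIs.

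A further set of Lef1+ cells carried genes of innate-like T cells. The summed γδ and NKT markers, 9 genes in the table, came to 244 to 875 CPM in the Lef1+ subtype, 41.1 to 145 in the Gzmb+ subtype, 309 to 723 in cells annotated as NK and 199 to 552 in B cells. The annotation also has a Trdc+ double-negative T subtype, which held 6 to 25 cells per tumour and to which these cells do not belong. Trdc, on chromosome 14, was at 78.6, 384, 191, 89.2, 96.1 and 145 CPM in E, EM1, EM2, EM3, M and Parental, and at 0 to 7.68 CPM in the Gzmb+ subtype. Zbtb16 was at 78.6, 232, 174, 84.8, 144 and 62.0 CPM, and at 0 to 3.86 in the Gzmb+ cells of the 5 tumours with at least 50 of each. With medians of 3.81 and 3.41 against the Gzmb+ subtype, Zbtb16 and Trdc headed the list of higher genes. With only CD8-gene cells in both subtypes neither gene was still past 2-fold in every tumour. At 1000 UMIs, 110 of 885 Lef1+ cells (12.4%) showed at least 1 of these 2 genes: 26 of 83 in EM1 (31.3%), 14 of 64 in EM2 (21.9%), 10 of 65 in M and 4 of 26 in Parental (15.4% each), 43 of 470 in EM3 (9.15%) and 13 of 177 in E (7.35%). In the Gzmb+ subtype 4 of 1510 cells did (0.265%), and 38 of 1698 in the Cd44- Cd4+ subtype (2.24%). Of the 110 cells, 5 (4.55%) also showed a CD8 gene, against 399 of the other 775 Lef1+ cells (51.5%).

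The cells with Trdc or Zbtb16 differed from the CD8-gene cells of the same subtype in other genes as well. Pooled over tumours, Ikzf2, the factor Helios, was at 736 CPM in them, at 60.2 in the CD8-gene cells and at 359 in the cells with neither. Xcl1, a chemokine that calls cross-presenting dendritic cells, was at 336, 35.1 and 146 CPM, and Cxcr4 at 2873, 1010 and 1681. No UMI of Gzmk was counted in the first class (0 CPM, exact upper limit 33.5), and it was at 308 and 202 CPM in the others. Lef1 was nearly level, at 318, 263 and 298 CPM. The pools differ in their tumours, since EM1 gave 26 of the 110 cells with Trdc or Zbtb16 and 24 of the 399 with a CD8 gene, and EM1 and E differ in Gzmk and Ikzf2 as a whole.

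The split by CD8 genes was then tested within tumours, an analysis added after the values were seen. Lef1+ cells were divided by whether Cd8a or Cd8b1 was seen in 1000 of their UMIs, their full counts were summed per tumour and class, and edgeR's quasi-likelihood test compared the classes with the tumour as a block. Of 7366 genes other than the 2 that made the split, 35 (0.475%) were higher in the cells with a CD8 gene and 99 (1.34%) lower, at a Benjamini-Hochberg adjusted p under 0.05. The 4 measured genes of γδ and NKT cells were all on the lower side, with Trdc at −4.14 ± 0.37 (log2 fold change ± SE) and Zbtb16 at −4.62 ± 0.41. For these genes the split restates the rarity of CD8 genes in Trdc or Zbtb16 cells given above, on the same cells, so no p is given and the value is a description. Ikzf2 (−2.34 ± 0.21), Xcl1 (−2.44 ± 0.28) and Cxcr4 (−1.05 ± 0.13) were lower as well, Ikzf2 and Cxcr4 in 6 of 6 tumours; their difference between classes of the same cells was given above, so these values too are a description. Tnfrsf9 (−1.01) fell with 3 further activation genes of 14. DESeq2 on the same counts called 7 genes higher and 34 lower.

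On the higher side of the split stood Pdcd1 (0.83 ± 0.14, higher in 6 of 6 tumours). Its level in the CD8-gene cells of this label was given above, on the same cells, so no p is given and the value is a description. Beside Pdcd1 stood 6 of 20 interferon γ genes, led by Nlrc5 (0.98 ± 0.19), the activator of MHC class I genes. Of 16 killing genes 3 were higher by edgeR: Nkg7 (0.62 ± 0.15), Gzmb (0.64 ± 0.17) and Gzmk (0.81 ± 0.22). For Gzmk this too is a description, since its levels in classes of these cells were given above. DESeq2 called Nlrc5 and Nkg7, and neither Gzmb nor Gzmk. Of 19 naive and central memory genes 2 were higher by edgeR, Ccr7 (0.48 ± 0.14) and Dapl1 (2.92 ± 0.74), and 1 lower, Satb1 (−0.66 ± 0.14), with a list median of −0.09. DESeq2 called Satb1 and not Ccr7, and gave no adjusted p for Dapl1. Tcf7 (0.16) did not pass, and Lef1, which names the subtype, is given as a description (0.03). Macrophage markers went with the cells without a CD8 gene, where Apoe (−0.60), Lyz2, C1qa and C1qb were the 4 of 12 that passed by edgeR. Of the CD4 T cell markers, 2 of 3 tested were lower with a CD8 gene as well, Cd4 (−2.94 ± 0.35) and Tnfrsf4 (−1.53 ± 0.39) by edgeR and neither by DESeq2. The part of these cells or their RNA in the other differences was not tested. Leaving out EM3 took the calls from 35 and 99 to 20 and 54, leaving out E took the higher calls to 19, and leaving out M to 21.

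The same test by Pdcd1 gave few calls. Of 7367 genes, 9 (0.122%) were higher in Lef1+ cells with Pdcd1 and 12 (0.163%) lower. Gzmk (1.36 ± 0.22, adjusted p = 1.6e-06, edgeR, higher in 5 of 6 tumours; 1 of 16 killing genes higher, with Gzma lower at −1.01), Cxcr6 (0.76 ± 0.17), Ctla4 (0.71 ± 0.17), another checkpoint receptor, and Rgs16 (1.29 ± 0.23), a brake on chemokine receptor signals, were higher. Of 19 naive and central memory genes 4 were lower, among them Satb1 (−0.95 ± 0.15), Igfbp4 (−1.39) and Ccr7 (−0.59). Lef1 differed by −0.83, in 6 of 6 tumours, a description since the subtype is named for it. Tcf7 showed no such difference that passed (−0.08, adjusted p = 0.9998, edgeR). These calls rest on few tumours: without EM3, 5 were higher and 1 lower, without E 3 and 6, and DESeq2 called 2 higher (Rgs16 and Ttc39c) and 1 lower (Satb1).

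**Figure D3:**
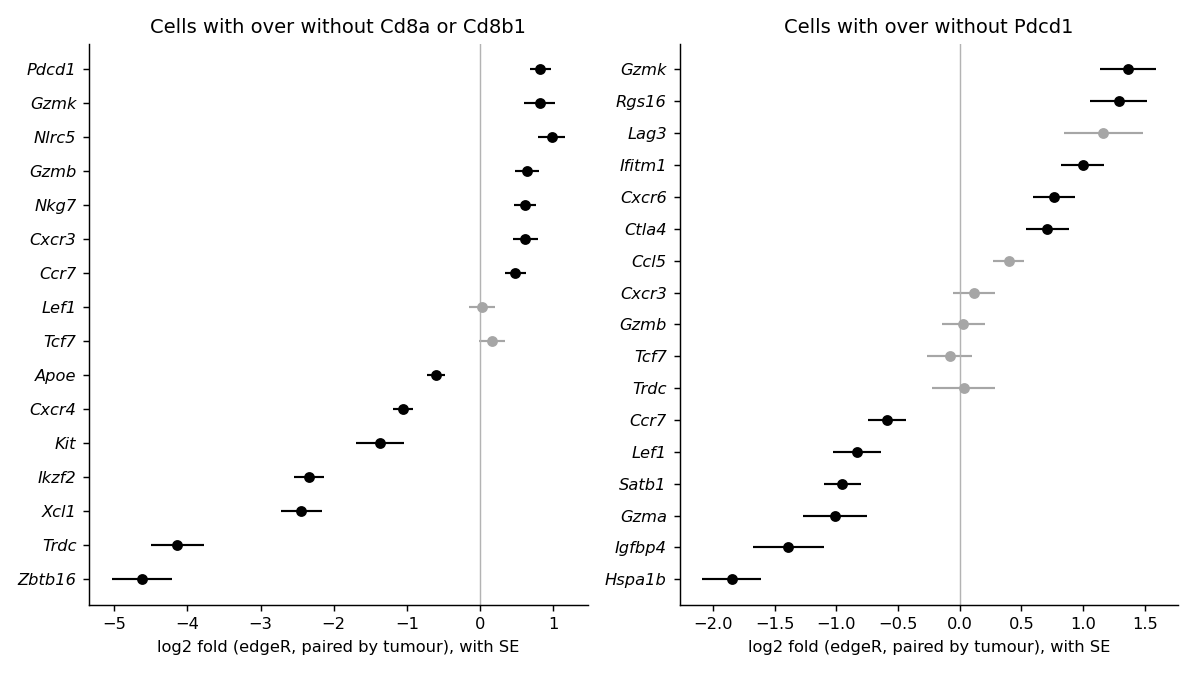
Log2 fold change between Lef1+ cells with and without a CD8 gene (one panel) and with and without Pdcd1 (the other), as edgeR estimates over 6 tumours with lines of 1 SE. Black points have an adjusted p under 0.05 and grey ones do not. The colour is no test for Lef1 in either panel, or for Trdc, Zbtb16, Ikzf2, Xcl1, Cxcr4, Pdcd1 and Gzmk in the CD8-gene panel. Trdc and Zbtb16 lie at −4.14 and −4.62 in the CD8-gene panel, and Lef1 and Satb1 lie below 0 in the Pdcd1 panel.

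Across tumours, pairs of CD45 libraries were compared within the subtype. A gene counted as higher or lower when the ratio with 10 CPM added was at least 2-fold and the 95% interval of the ratio of counts, which covers counting error only, left out 1. The interval was not adjusted for the number of genes compared, so in all 4 pairs some counted genes can come from counting error alone. The value in macrophages of the same libraries is given beside genes that macrophages express. EM3 and E had the most cells of the 4 pairs compared, and their CD45 libraries shared 1640 barcodes: 31 of 5164 genes (0.600%) were higher in EM3 and 10 (0.194%) lower. That total of 41 depends on the settings, from 9 with a pseudocount of 50 CPM to 168 with no filter on low values. The heat shock genes Hspa1a (297 against 53.3 CPM, log2 2.27) and Hspa1b (414 against 78.6, 2.26) led, and in macrophages they differed by 1.81 and 1.91. The receptor segment gene Trbv19 (220 against 67.4 CPM, 1.57; −4.65 on the 5 and 12 cells without a UMI of another lineage) and Il2ra, the high-affinity IL-2 receptor chain (64.7 against 22.5, 1.202), were higher in EM3. Gzma, granzyme A, was lower in EM3 (61.3 against 188 CPM, −1.47, but 0.14 on the same 5 and 12 cells). Lower too were Ifng (20.1 against 53.3, −1.07) and the interferon gene Isg15 (122 against 264, −1.06, and −1.60 in macrophages). All 10 macrophage markers measured had a value above 0 (list median 0.61, 1 counted as higher), as did 5 of 6 granulocyte markers (list median 0.40). Their part in these differences was not tested.

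In M, 193 of 5378 genes (3.59%) were higher than in E and 203 (3.77%) lower, on 67 Lef1+ cells. Kit, the stem cell factor receptor (336 against 39.3 CPM, log2 2.81), Il2ra (192 against 22.5, 2.64), Ikzf2 (681 against 163, 2.00) and Xcl1 (232 against 56.2, 1.87) were higher in M. Gzmk (56.0 against 249.9 CPM, −1.98), the costimulator Icos (512 against 1168, −1.17) and Cd5, a brake on receptor signals (112 against 376, −1.66), were lower. Markers of CD4 T cells moved with them: both that were measured were lower in M (list median −2.80), and the 5 markers summed to 16.01 against 211 CPM, a part that was not tested. With only CD8-gene cells, 28 in M and 114 in E, Gzmk (−1.39) and Icos (−1.02) still counted as lower, and Kit (4.35) and Ikzf2 (2.51) as higher, while Xcl1 (1.57) did not. Only 2 cells in M and 12 in E had no UMI of another lineage, and on these Ikzf2 was at −4.65, Kit at 0, Gzmk at 9.4e-04 and Icos at −0.78. The MHC class II genes H2-Aa (184 against 1353 CPM, −2.81), H2-Eb1 (−3.63) and Cd74 (272 against 2069, −2.88) and the protease gene Mmp19 (24.02 against 730, −4.44) were lower by the most. Macrophages, which held 3297 and 9047 CPM of H2-Aa in M and E, differed the same way, by −1.45, −1.76, −1.30 and −2.58; the part of macrophage RNA was not tested.

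In EM1, 146 of 5332 genes (2.74%) were higher than in E and 155 (2.91%) lower. All 4 measured γδ and NKT genes were among the higher ones, with Trdc at 384 against 78.6 CPM (2.15, ratio interval 3.06 to 7.97) and Zbtb16 at 232 against 78.6 (1.45). Xcl1 (431 against 56.2 CPM, 2.74), Ikzf2 (583 against 163, 1.78), the NK receptor gene Klra7 (79.5 against 8.42, 2.28) and Gzma (537 against 188, 1.46) went with them; on the 15 and 12 cells without a UMI of another lineage Gzma was at −0.78. Cd8a (225 against 528 CPM, −1.19) and Gzmk (79.5 against 249.9, −1.54) were lower in EM1. With the comparison limited to cells showing a CD8 gene, 34 in EM1 and 114 in E, Trdc (1.22), Zbtb16 (0.27), Klra7 (1.61) and Cd8a (−0.52) no longer counted. Mmp19 was lower here too (72.9 against 730 CPM, −3.16, and −1.78 in macrophages). Of 10 macrophage markers measured, 3 counted as lower and 3 had a value above 0 (list median −0.32). Their part in the other differences was not tested.

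EM1 and EM2 differed in 133 of 5305 genes higher in EM1 (2.51%) and 141 lower (2.66%), with 104 and 80 cells. Gzma was higher in EM1 (537 against 41.5 CPM, 3.41, ratio interval 5.32 to 40.9), but on the 15 and 14 cells without a UMI of another lineage the value was −0.38. Lag3 was at 92.8 against 24.9 CPM (1.56, on 14 and 3 UMIs), and 3 of 15 type I interferon genes were higher. Lower in EM1 were Itga1, an integrin of resident cells (26.5 against 116 CPM, −1.79, on 4 and 14 UMIs), and the macrophage gene Lyz2 (325 against 1228, −1.89; −0.19 in macrophages). Of 10 macrophage markers measured, 4 were lower and 0 had a value above 0 (list median −0.72); their part in the other differences was not tested. Lag3 (0.04) and Itga1 (−0.30) lost their difference when only cells with a CD8 gene were compared.

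Over all 6 tumours Gzma ran from 537 CPM in EM1 through 188 in E, 136 in M, 82.6 in Parental and 61.3 in EM3 to 41.5 in EM2, while Ikzf2 ran from 681 in M through 583 in EM1, 440.0 in EM2, 227 in Parental and 184 in EM3 to 163 in E. Ccl5 lay between 2747 and 5991 CPM, Il2rb, the IL-2 and IL-15 receptor chain, between 1859 and 3114, and Tbx21 between 179 and 227. Mki67, a marker of division, was at 0 to 33.2 CPM. Parental entered no ratio, since its 28 cells gave 48402 UMIs in all.

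**Figure D4:**
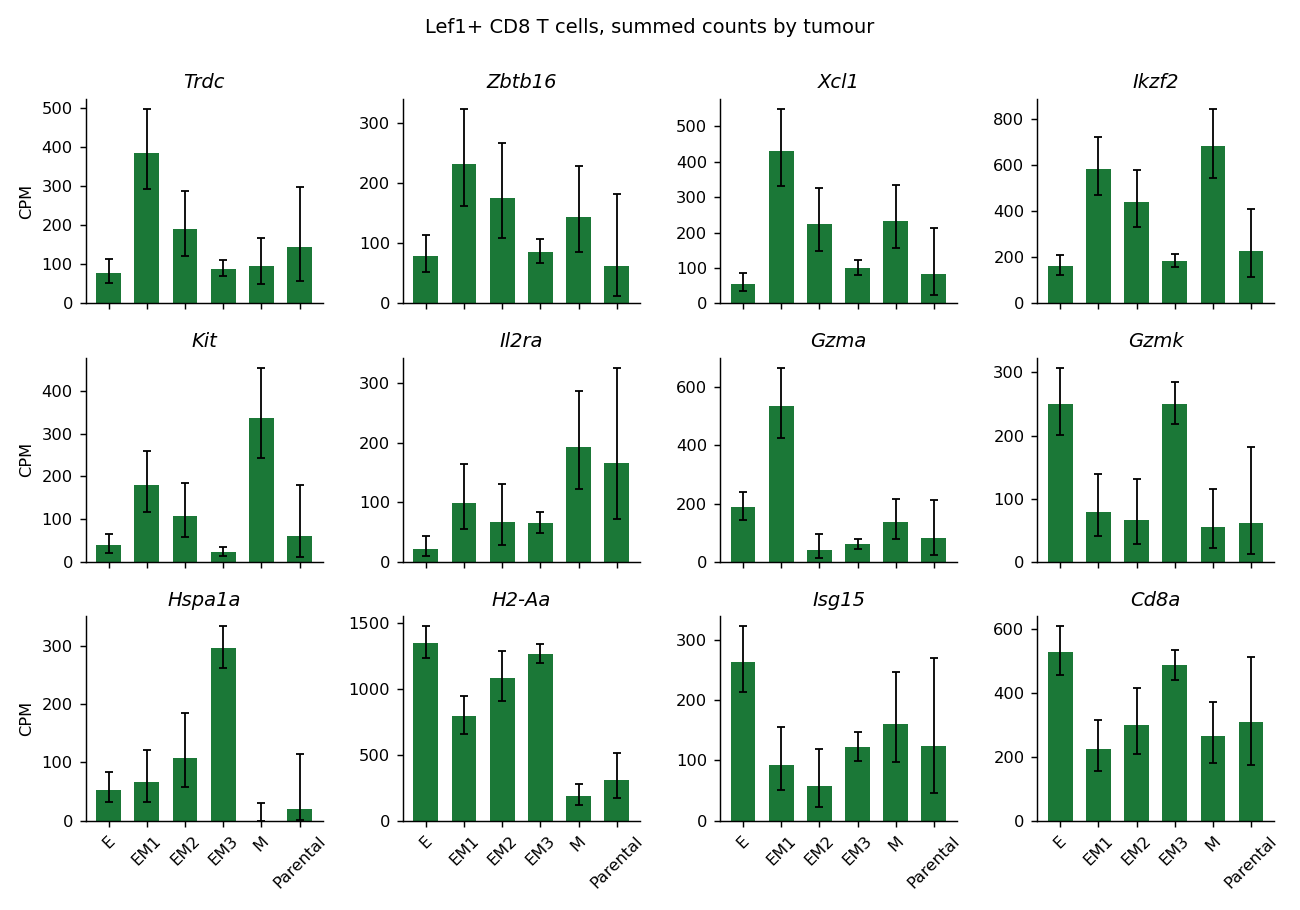
Levels of genes of the Lef1+ subtype in each tumour, as bars in CPM from 0 with lines of 95% Poisson intervals, 1 library per tumour. Trdc is at 384 CPM in EM1 and 78.6 in E, and Gzma at 537 CPM in EM1 and 41.5 in EM2.

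The annotation of the Total libraries has 1 joint class of T and NK cells without subtypes, so a gate was used: cells of that class with a CD8 gene and no Cd4 at 1000 UMIs. Lef1 was seen in 6.25% of 320 such cells in EM3, 10.03% of 1166 in E, 11.6% of 112 in M, 17.0% of 229 in EM2, 21.3% of 357 in EM1 and 43.4% of 53 in Parental. The CD45 libraries gave 10.7%, 9.57%, 8.11%, 23.2%, 21.8% and 60.8% in the same order, so Parental was the highest in both kinds of library. Without thinning the Total shares were 15.1%, 18.1%, 23.5%, 27.9%, 29.0% and 52.9%, again in this order. EM3, with the most cells labelled Lef1+, was the lowest in the Total libraries. Its exact interval (3.86% to 9.49%) overlapped those of E (8.37% to 11.9%) and M (6.33% to 19.0%). By the same gate after CD45 selection only E and M were lower, with intervals that overlapped that of EM3. The CD45 gate was taken from a class of T cells without NK cells. Of the 371 CD45 gate cells with Lef1, 94 (25.3%) carry the Lef1+ label, so the gate does not stand for the subtype.

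The β chain segments of the T cell receptor were counted by UMI and by cell in the Lef1+ and the Gzmb+ subtype. The leading Trbv gene of 20 measured took 11.2%, 13.6%, 18.0%, 20.1%, 17.6% and 23.7% of the Trbv UMIs of Lef1+ cells in E, EM1, EM2, EM3, M and Parental (Trbv14, Trbv12-2, Trbv29, Trbv19, Trbv19 and Trbv14). In the Gzmb+ subtype it took 40.6%, 78.8%, 32.2%, 50.6% and 41.5% in the first 5 and 7 of 14 UMIs in Parental (Trbv13-3, Trbv14, Trbv19, Trbv14, Trbv19 and Trbv19). The Lef1+ share was lower in each of the 6 tumours. UMIs of 1 cell are not independent, and counted by each cell's leading gene the contrast was smaller in some tumours. The leading gene then held 58.1% of Gzmb+ cells against 13.4% of Lef1+ cells in EM1, but 25.8% (exact interval 20.6% to 31.5%) against 18.4% (14.5% to 22.9%) in EM3 and 26.7% against 13.0% in EM2. The per-cell intervals overlapped in EM2, EM3, M and Parental and were apart in E and EM1. Counted by cell, the leading genes of the Lef1+ subtype changed in E (Trbv5), EM2 (Trbv13-1, level with Trbv19), M (Trbv29) and Parental (Trbv1). They stayed the same in EM1 and EM3. In Parental the 14 UMIs of Trbv14 made it the leading gene in 1 of 19 cells. The effective number of segments (inverse Simpson index of the UMI shares) was 13.2, 11.6, 9.77, 9.80, 10.5 and 7.65 in Lef1+ cells, against 4.56, 1.60, 6.81, 3.33, 4.22 and 2.28. Cd44- Cd4+ cells, with a leading share of 13.7% to 22.3%, were like the Lef1+ subtype in this. Segment use is not clonality: receptor sequences were not read, and near-identical Trbv genes can share reads. The 20 genes do not include Trbv13-2, Trbv15 or Trbv24, so the shares and effective numbers leave these segments out.

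**Figure D5:**
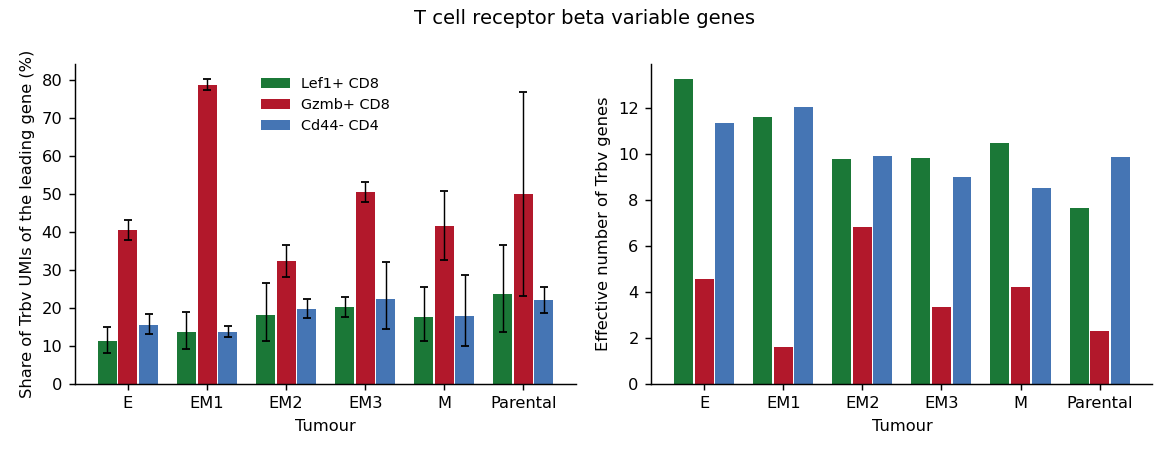
Share of Trbv UMIs taken by the leading Trbv gene in the Lef1+, Gzmb+ and Cd44- Cd4+ subtypes of each tumour (bars in percent with 95% exact binomial intervals), beside the effective number of Trbv genes (inverse Simpson index). The Lef1+ bars reach 11.2% to 23.7%, below the Gzmb+ bar of the same tumour in each of the 6 tumours. The 23.7% of Parental is 14 of 59 UMIs.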

How the data were processed

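Dissociated tumours were profiled by droplet single-cell RNA-seq. Per the labels' protocols both a fixed-RNA kit and 3' reagents are named, and which made each library is not given in the sources used here, which limits how levels of Trbv, Trdc and CD8 genes can be read. The submitters' processing notes name Cell Ranger and mm10, with the Cell Ranger version not given in the sources used here. The authors deposited raw UMI counts per gene and cell, and tables with UMI and gene counts per cell, the mitochondrial percent and fraction of UMIs, and cell labels. The limits of their cell filter are not given in the sources used here.

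Groups and members came from the labels and the deposited annotation. The members and gene lists were chosen with earlier results of these data known, and the lists (354 genes in 25 lists) support nothing by their choice. Doublets were removed with scanpy 1.11.5 (Scrublet, score limit 0.247). Counts were summed per tumour and subtype and scaled to CPM, with exact Poisson intervals for CPM and Clopper-Pearson 95% intervals for shares. Log2 ratios used 10 CPM as pseudocount and genes with at least 50 CPM in either group. Named genes were the 10 highest and lowest of each comparison between tumours, the 15 highest and lowest between subtypes, and list members with at least 50 CPM; genes named from the splits and Trbv genes were chosen after their values were seen. Shares of cells with a UMI used cells thinned to 1000 UMIs, with 1500 UMIs and no thinning as alternatives. The splits were fitted with edgeR 4.0.16 (quasi-likelihood, tumour as block, genes with at least 30 UMIs over the fit), with DESeq2 1.42.0 as the alternative; both splits pair classes from the same tumour, and the script was tested on simulated data with 200 changed genes. The alternatives tried were other pseudocounts, filters and scalings, cells with another lineage's UMI or without a CD8 gene left out, a stricter cell filter, and each tumour left out. Some genes that met the rule are not reported here.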

Additional observations from a re-analysis of the deposited data

Results flagged for a closer look

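Some genes differed between the Lef1+ and Gzmb+ subtypes in opposite directions in different tumours, past 2-fold and past counting error in both; the difference between tumours was not tested, since each tumour is 1 sample. Values are log2 ratios of CPM with 10 CPM added, Lef1+ over Gzmb+. Xcl1, a chemokine for cross-presenting dendritic cells, was lower in the Lef1+ cells of E (−1.30) and EM3 (−1.16) and higher in those of EM1 (1.67), EM2 (2.29) and M (1.67). Gzmk, granzyme K, was higher in EM3 (2.14) and lower in EM1 (−1.29), EM2 (−1.62) and M (−1.73). Gzma, granzyme A, was higher in EM1 (1.32) and lower in M (−1.19). Ccl5 was higher in EM3 (1.59) and lower in EM2 (−1.11). Tnfsf8, the CD30 ligand, was higher in EM3 (1.10) and lower in M (−3.07). Itga1, an integrin chain of resident T cells, was higher in EM2 (1.14) and lower in E (−1.19).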

How the results depend on the processing

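The comparisons of the Lef1+ subtype were repeated under other settings. Of 176 alternative values of shares, depths and gene counts, 124 stayed within the limits set for no change and 52 moved; of 964 alternative values of named genes, 859 kept their side of the 2-fold limit, 97 fell under it and 8 reversed. The cause of these shifts was not tested, except where a setting leaves few cells.

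A pseudocount of 50 CPM cut the genes past 2-fold from 41 to 9 for EM3 over E, 396 to 134 for M over E, 301 to 80 for EM1 over E, 274 to 107 for EM1 over EM2, 84 to 32 against Gzmb+ and 158 to 71 against Cd44- Cd4+ cells. EM3 over E also gave 83 genes with a pseudocount of 1 CPM, 131 with a filter of 20 CPM, 168 with no filter and 120 with only CD8-gene cells. Leaving out 1 tumour gave 88 to 142 genes against Gzmb+ (142 without M) and 180 to 220 against Cd44- Cd4+ cells. A rise is built in here, since a gene must pass in every tumour used.

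Leaving out cells with any UMI of another lineage's markers left 12, 15, 14, 5, 2 and 1 Lef1+ cells in E, EM1, EM2, EM3, M and Parental and gave 62, 78, 129 and 114 genes in the 4 comparisons of tumours. It left 0 Gzmb+ cells in EM3, so it gave no value against the Gzmb+ subtype, and the 73 genes against Cd44- Cd4+ cells rest on 1 such cell in EM3. On these few cells Trbv19 (−4.65) and Gzma (0.14) reversed in EM3 over E, Ikzf2 (−4.65) and Gzmk (9.4e-04) in M over E, Gzma in EM1 over E (−0.78) and over EM2 (−0.38), and Gzmk against Cd44- Cd4+ cells (−0.27). With only CD8-gene cells, Trdc reversed against Cd44- Cd4+ cells (−0.32), and among the genes higher or lower than in Gzmb+ cells Zbtb16 (median 1.82), Trdc (0.69), Ly6c2 (2.77), Cd7 (1.43), Cxcr4 (1.65), Lef1 (2.91), Tcf7 (2.64), Irf7 (1.54), Pdcd1 (−1.47), Tox (−1.95) and Cd8a (−0.59) were no longer past 2-fold in every tumour.

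Without granulocytes in the denominator the share among CD45 cells was 2.46% in E, 6.53% in EM3 and 1.83% in M, and with at least 650 genes per cell 1.40% in EM1, 5.30% in EM3 and 1.42% in M. Without thinning, Lef1 was seen in 18.1%, 29.0%, 27.9%, 15.1% and 23.5% of the CD8-gene cells of the Total libraries of E, EM1, EM2, EM3 and M.

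For the CD8-gene split, with 35 genes higher and 99 lower, DESeq2 called 7 and 34, thinned counts 5 and 49, and cells without another lineage's UMI 7 and 17. Leaving out 1 tumour gave 19 to 27 higher and 54 to 94 lower. For the Pdcd1 split, with 9 and 12, DESeq2 called 2 and 1, thinned counts 3 and 4, scaling by totals 20 higher, and cells without another lineage's UMI 0 and 1; leaving out 1 tumour gave 3 to 13 higher and 1 to 15 lower. The tumour block pairs the classes because both come from the same tumour. With no replicate block the CD8-gene split gave 10 and 55 and the Pdcd1 split 2 and 1.

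Depth limits the rest: 28 cells in Parental, 67 in M and 80 in EM2 leave many genes at a few UMIs, and 1 tumour per group leaves the spread between tumours of one line unmeasured.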
